A study of Mus musculus with 10 samples.

Results

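The genes described here are 46 genes of G2 and mitosis, followed across 5 mouse B-cell lymphomas with and without the DNA-damaging drug Adriamycin (ADR, doxorubicin). They were chosen by name as genes tied to G2 and mitosis, with earlier results of these data known. Each was read from the probe set with its gene symbol that had the highest mean over all 10 arrays. All 46 had such a probe set, of 18193 genes with a named probe set, and all 46 passed the filter on dim genes, of 11472 genes tested. To pass it, 5 or more of the 10 arrays had to give a signal higher than the table's median.

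Total RNA was measured on 10 Affymetrix mouse expression arrays, in 2 groups of 5. Primary lymphoma cells came from lymph nodes of mice that carry the Emu-myc transgene, in which an immunoglobulin enhancer drives Myc in the B lineage, and that lack the histone H3 lysine methyltransferase Suv39h1. The ADR group was treated in culture with 0.05 µg/ml Adriamycin for 5 days, and the untreated group was left without drug. Each lymphoma (lymphoma_5783, lymphoma_7890, lymphoma_9250, lymphoma_1032 and lymphoma_4936) gave 1 array to each group, so the lymphoma number pairs the arrays. Both groups shared the Emu-myc;Suv39h1-/- genotype, a retroviral Bcl2 gene, selection with puromycin and culture on gamma-irradiated NIH 3T3 mouse fibroblasts. By the labels, no lymphoma cells with Suv39h1 or without added Bcl2 were in either group, and no level of Suv39h1 is reported here. In the mitosis genes the pair of lymphoma_4936 stood apart from the other 4 pairs, so the results are also given without it. Its arrays were used as labelled, with Cdkn1a and Psrc1 higher on the ADR array, by 0.49 and 1.12. Whether both labels of that pair are right was not tested, and exchanging them would turn the sign of each of its changes.

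In dividing cells the genes of this set are read out late in the cycle, in G2 and mitosis. The cyclin-dependent kinase Cdk1 with its cyclins starts mitosis, kinases and motor proteins build the spindle, the kinetochore and its checkpoint hold chromosomes on the spindle, and the anaphase-promoting complex (APC/C) then marks cyclins and other proteins for destruction. Transcription of many of them is known to depend on the MuvB complex, with Mybl2 or Foxm1 as activators, which binds the promoter motif called CHR, and on NF-Y, which binds CCAAT. When p53 raises the Cdk inhibitor p21, encoded by Cdkn1a, Rb-family proteins with MuvB form the DREAM complex, which represses such promoters.

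Promoters of 6 members are shown, picked as members at the ends of the range of changes or with a central role. Kif11 had the lowest mean change, Psrc1 the highest and Mki67 the lowest among chromosome proteins. Ccnb2, Plk1 and Cdc20 encode a cyclin, a kinase and an APC/C activator. All 6 hold a CCAAT match, and all but Psrc1 hold a CHR match as defined below. The sequences are from RefSeq on the build GRCm38.p6, run 5′ to 3′ on the strand of the gene, and cover 250 bases before an annotated start to 50 after it. Of several windows for a gene, the one with the lowest coordinate is shown. For Mki67 the listed 5′ end of the gene, 135716450, lies upstream of the start used. Capitals mark the CHR letters TTTGAA or their reverse complement TTCAAA, and CCAAT or its reverse complement ATTGG. Other spellings of CHR, such as TTCGAA, were not searched, so a CHR match here means TTTGAA or TTCAAA only.
Kif11, chr19:37376132-37376431, plus strand: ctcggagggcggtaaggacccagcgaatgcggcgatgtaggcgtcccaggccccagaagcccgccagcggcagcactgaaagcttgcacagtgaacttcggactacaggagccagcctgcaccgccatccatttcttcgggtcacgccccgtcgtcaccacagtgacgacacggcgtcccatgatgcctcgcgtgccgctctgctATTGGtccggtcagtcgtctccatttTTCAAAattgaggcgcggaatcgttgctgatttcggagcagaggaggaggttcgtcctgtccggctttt
Mki67, chr7:135716330-135716629, minus strand: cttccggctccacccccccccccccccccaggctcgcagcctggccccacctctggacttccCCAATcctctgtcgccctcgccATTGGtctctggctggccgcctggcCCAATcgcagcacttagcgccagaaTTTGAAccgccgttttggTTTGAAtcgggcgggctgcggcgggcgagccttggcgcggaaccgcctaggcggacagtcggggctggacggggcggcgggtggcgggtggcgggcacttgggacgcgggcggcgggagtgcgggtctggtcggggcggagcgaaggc
Ccnb2, chr9:70421505-70421804, minus strand: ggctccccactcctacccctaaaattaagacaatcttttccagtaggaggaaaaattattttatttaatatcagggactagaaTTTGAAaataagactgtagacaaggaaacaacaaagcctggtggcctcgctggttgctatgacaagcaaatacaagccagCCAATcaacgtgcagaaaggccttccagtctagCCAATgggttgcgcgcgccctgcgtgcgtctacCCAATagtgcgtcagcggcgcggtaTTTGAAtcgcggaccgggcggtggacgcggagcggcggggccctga
Plk1, chr7:122159185-122159484, plus strand: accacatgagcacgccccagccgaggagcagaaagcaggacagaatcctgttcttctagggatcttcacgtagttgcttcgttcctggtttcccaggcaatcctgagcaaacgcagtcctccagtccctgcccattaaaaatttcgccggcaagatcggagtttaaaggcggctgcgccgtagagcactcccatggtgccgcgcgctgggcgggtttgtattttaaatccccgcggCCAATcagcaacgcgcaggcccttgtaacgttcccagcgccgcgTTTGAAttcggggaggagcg
Cdc20, chr4:118437294-118437593, minus strand: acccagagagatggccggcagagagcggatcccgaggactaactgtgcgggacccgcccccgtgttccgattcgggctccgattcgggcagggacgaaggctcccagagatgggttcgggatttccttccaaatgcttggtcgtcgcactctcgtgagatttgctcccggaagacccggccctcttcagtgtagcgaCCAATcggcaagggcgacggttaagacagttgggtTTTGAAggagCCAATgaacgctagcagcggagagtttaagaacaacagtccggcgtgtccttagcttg
Psrc1, chr3:108383554-108383853, plus strand: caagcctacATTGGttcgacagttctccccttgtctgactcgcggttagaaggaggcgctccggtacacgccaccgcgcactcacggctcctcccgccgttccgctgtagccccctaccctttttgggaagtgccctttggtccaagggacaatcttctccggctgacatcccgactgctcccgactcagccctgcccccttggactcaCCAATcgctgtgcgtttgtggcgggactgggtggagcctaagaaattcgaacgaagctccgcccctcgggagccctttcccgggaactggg
Kif11 had 1 CHR match, whose first base lay at -19 when the annotated start is counted as 0, and 1 CCAAT match at -45. Ccnb2 had 3 CCAAT matches, at -87, -54 and -21, and CHR matches at -167 and 4. Psrc1 had no TTTGAA or TTCAAA in this window and 2 CCAAT matches, at -241 and -41. The letters TTCGAA, which were not searched, do occur in the Psrc1 window, so a CHR of another spelling is not excluded there.

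The RefSeq table held promoters of 38 of the 46 members. Ccna2, Cdc25c, Foxm1, Tpx2, Dlgap5, Aurkb, Smc4 and Cdca2 were not matched. A CHR match on either strand was found in 27 of 38 (71.1%), against 20.2% of the 27025 genes of the table and 14.1% of the 9325 tested genes found in it. CCAAT was found in 30 of 38 (78.9%), against 41.1% of the genes of the table and 42.7% of the tested genes. Both motifs were found in 23 (60.5%), against 8.97% and 6.82%. A gene counted if any of its promoters in the table held the motif, so both motifs could come from different promoters. The letters of both motifs overlapped in 1 member promoter. These are matches of letters, not measured binding. The 11 members without TTTGAA or TTCAAA were Cks2, Nek2, Tacc3, Gtse1, Nusap1, Psrc1, Gas2l3, Birc5, Nuf2, Bub1 and Cenpe. They may hold other spellings of CHR, which were not searched.

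Signals of the 46 genes were lower on average in ADR cells than in untreated cells for 44 genes and higher for 2, Psrc1 and Gtse1. The median of the mean log2 differences, ADR minus untreated, was -0.51, beside -0.02 over all genes tested, and the members ran from -0.93 (Kif11) to 1.14 (Psrc1). A mean below 0 was found for 55.2% of all genes tested. The direction was not shared by the lymphomas: 41 members were lower with ADR in 4 lymphomas and higher in lymphoma_4936, a pattern of 9.87% of all genes tested. Signals lower in at least 4 of 5 lymphomas were likewise found for 41 members, beside 26.0% of all genes.

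No gene of the array passed the threshold, an adjusted p below 0.05 in the paired limma fit with Benjamini-Hochberg adjustment over the 11472 genes tested. The share of all genes called was 0%, and the smallest adjusted p was 0.551. The members' adjusted p lay between 0.565 and 0.814 in that limma fit. At an unadjusted p below 0.05, 5 members were lower (Kif11, Mki67, Ndc80, Smc4 and Hmgb2), beside 4.52% of all genes, and 1 was higher (Psrc1), beside 3.97%. No member had the same sign in all 5 lymphomas, beside 9.49% of all genes. For none of the 46 did the values of ADR arrays and of untreated arrays keep apart without overlap, beside 0.357% of all genes. This paired test weighs a gene's mean change against the spread of its within-pair changes over the 5 lymphomas. By it no mean change passed after adjustment. In bulk RNA, fewer cells in G2 and mitosis and less RNA of these genes per cell cannot be told apart.

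**Figure D1:**
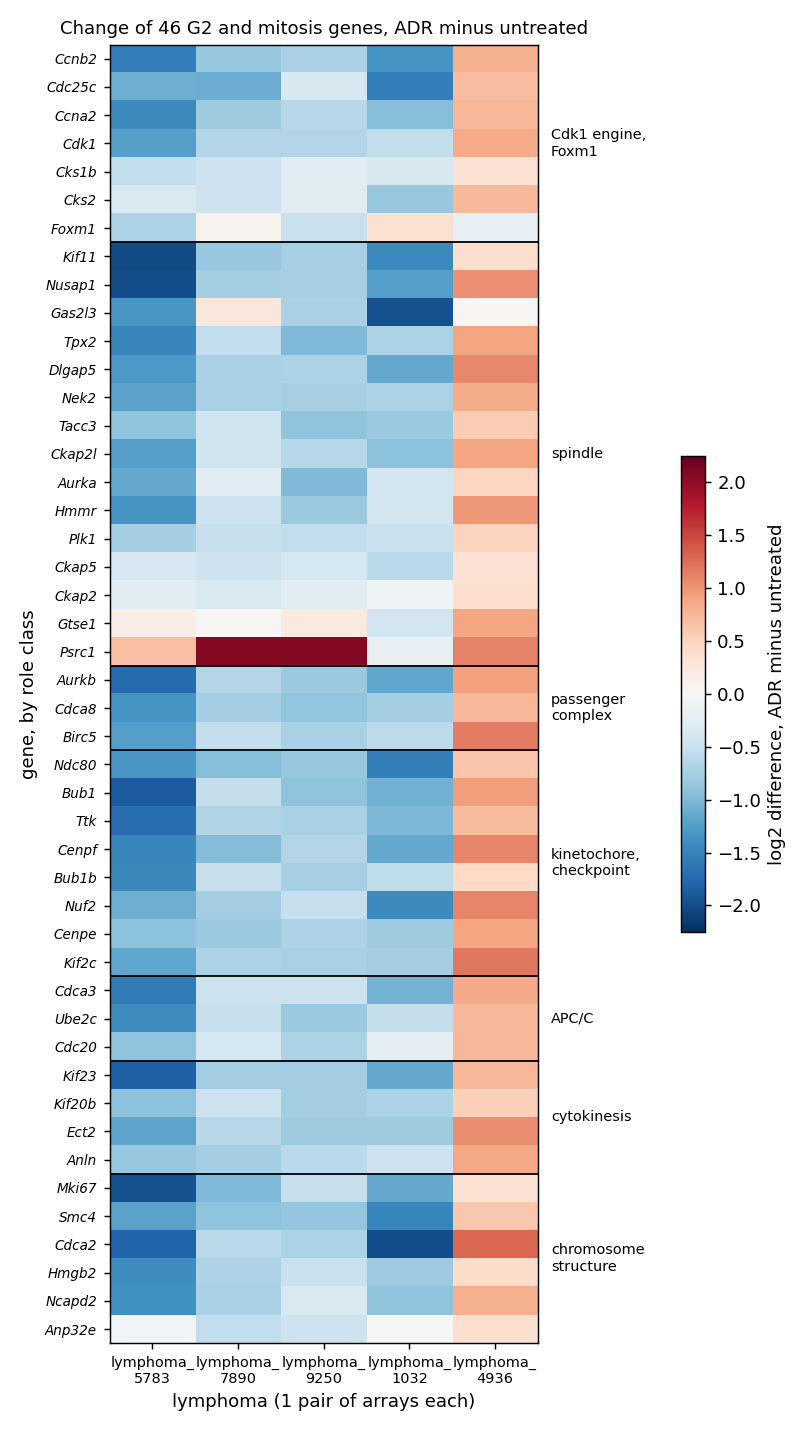
Log2 difference, ADR minus untreated, of each of the 46 genes (down the page, by role) in each of the 5 lymphomas (across); colour gives the difference. Most tiles are below 0 in lymphoma_5783, lymphoma_7890, lymphoma_9250 and lymphoma_1032 and above 0 in lymphoma_4936. Psrc1 and Gtse1 are higher in 4 of 5, and Psrc1 stands out by the size of its changes.

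Within lymphoma_5783 the median change of the members was -1.24, a median level 2.36-fold lower in ADR cells, and 44 of 46 were lower. The medians were -0.61 in lymphoma_7890 with 42 lower, -0.71 in lymphoma_9250 with 44 lower, and -0.81 in lymphoma_1032 with 44 lower. In lymphoma_4936 the median was 0.75, a median level 1.68-fold higher in ADR cells, and 45 of 46 were higher; the exception was Foxm1, at -0.19 on the probe set used and at 0.13 on one of nearly equal mean signal. Over all genes tested the medians of these 5 lymphomas were 0.04, -0.01, -0.02, -0.17 and 0.06, so the members stood below them in 4 lymphomas and above in lymphoma_4936. The share of all genes tested that was lower with ADR was 46.3%, 51.46%, 52.95%, 65.59% and 43.58% in the same order. The mean of the 5 lymphoma medians was -0.52 ± 0.75 (SD, n = 5).

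A signal at least 2-fold lower with ADR was seen for 32 members in lymphoma_5783, beside 3.02% of all genes, and for 17 in lymphoma_1032, beside 7.76%. It was seen for 1 member in lymphoma_7890, beside 0.488%, and for 0 in lymphoma_9250, beside 2.32%. In lymphoma_4936, 9 members were at least 2-fold higher with ADR, beside 2.19% of all genes. The lowest change of a member was -2.02 (Kif11) in lymphoma_5783, -1.11 (Cdc25c) in lymphoma_7890, -0.998 (Tpx2) in lymphoma_9250 and -1.99 (Cdca2) in lymphoma_1032. In lymphoma_4936 Cdca2, which recruits a phosphatase to chromatin at mitotic exit, had the highest change, 1.30. Of the 5 lymphomas, lymphoma_5783 gave the lowest change for 34 members and lymphoma_4936 the highest for 43. The same shares over all genes tested were not computed, so the part of whole-array differences in these counts was not tested.

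Both arrays of lymphoma_4936 stood apart from those of the other 4 lymphomas. The members' median position on its ADR array was -0.01 relative to each gene's mean over the untreated arrays, against -0.74 on its untreated array. On the other ADR arrays the position was -1.01 (lymphoma_5783), -0.40 (lymphoma_7890), -0.48 (lymphoma_9250) and -0.69 (lymphoma_1032), against 0.28, 0.18, 0.14 and 0.12 on their untreated arrays. Of the 46 members, 38 had their highest ADR signal in lymphoma_4936, and 41 had their lowest untreated signal there. For these counts, too, the shares over all genes tested were not computed. The median SD of a member over lymphomas was 0.45 among ADR arrays, 0.46 among untreated arrays and 0.82 for the change, beside 0.36, 0.35 and 0.33 over all genes tested.

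**Figure D2:**
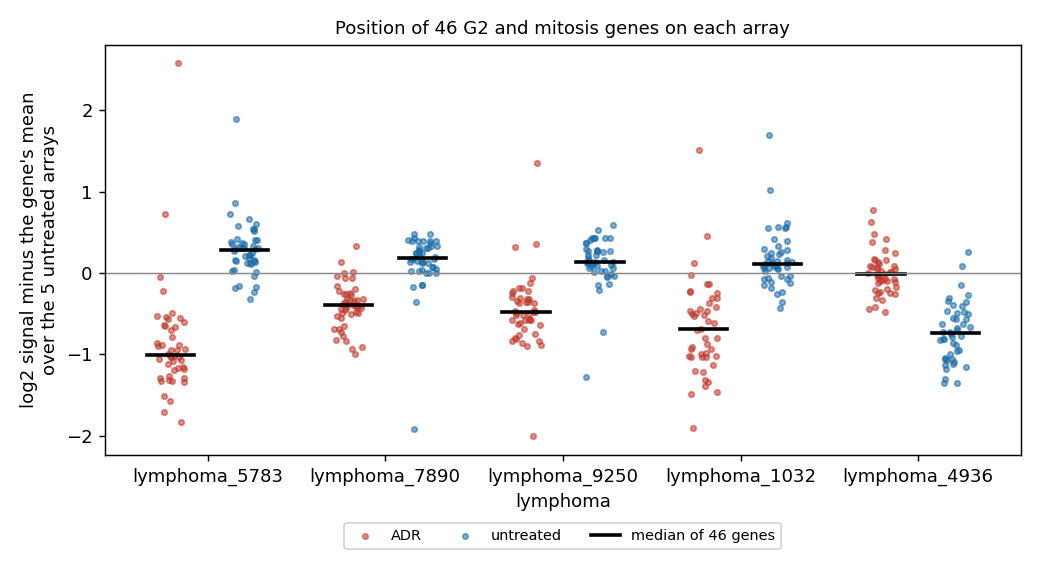
Position of the 46 genes on each array, in log2 units relative to each gene's mean over the untreated arrays, with ADR arrays left of untreated arrays. The untreated array of lymphoma_4936, with a median of -0.74, lies among the ADR arrays. Its ADR array, at -0.01, lies close to the untreated mean, which includes that low untreated array. The untreated arrays of the other lymphomas, at 0.12 to 0.28, all lie above it.

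Without lymphoma_4936 the limma fit on 4 pairs gave a median change of -0.85 and 45 members lower on average. At an unadjusted p below 0.05, 41 members were then lower, beside 8.31% of all genes, and still none passed the threshold, with a smallest adjusted p of 0.153 over all genes. That pair was left out because these same members ran the other way in it. The count of 41 and the values without the pair are therefore descriptions and no test of the members. In those 4 lymphomas Kif11 differed by -1.26 ± 0.59, Mki67 by -1.15 ± 0.60, Ccnb2 by -1.12 ± 0.39, Cdk1 by -0.78 ± 0.31 and Plk1 by -0.58 ± 0.12 (SD, n = 4). Aurkb differed by -1.10 ± 0.47, Birc5 by -0.78 ± 0.31, Ndc80 by -1.16 ± 0.32, Kif23 by -1.14 ± 0.50, Ube2c by -0.83 ± 0.42 and Cdc20 by -0.55 ± 0.31 over the same 4 lymphomas. The members' means there ran from -1.27 (Cdca2) to 1.15 (Psrc1), the only mean above 0 of the 46, with Gtse1 at -0.01 and Foxm1 at -0.19. Leaving out lymphoma_5783 instead gave a median of -0.34 and leaving out lymphoma_1032 one of -0.43, each with 0 members lower at an unadjusted p below 0.05, beside 2.94% and 2.52% of all genes. Leaving out lymphoma_7890 or lymphoma_9250 left 2 such members of 46, a share near that of all genes, 4.46% and 3.28%, with medians of -0.51 and -0.46.

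Markers of other cells differed within some pairs. The summed linear signal of 16 macrophage genes ran from 1195 to 36371 on ADR arrays and from 882 to 21279 on untreated arrays. On the log2 scale this sum differed by 1.76, 0.35, -0.25, 1.42 and 0.50 in lymphoma_5783, lymphoma_7890, lymphoma_9250, lymphoma_1032 and lymphoma_4936, and 12 of the 16 genes were higher on average in ADR cells. Bright genes weigh most in such a sum: Lyz2, of lysozyme, differed by 2.10 in lymphoma_5783 and 1.80 in lymphoma_1032. The mean change of the 16 genes was 0.34, 0.08, -0.21, 0.76 and 0.09 in the same lymphomas. In lymphoma_5783 the macrophage genes C1qa, C1qb, C1qc and Mrc1 differed by -2.91, -2.40, -1.30 and -2.94. For 15 fibroblast genes, which the feeder cells could give, the sum ran from 573 to 4197 on ADR arrays and from 504 to 2269 on untreated arrays. It differed by 0.89, 0.04, 0.15, 0.79 and 0.21 on the log2 scale in the same lymphomas, and 10 of the 15 were higher on average, with Lum and Timp3 at or below the table's median on every array. Sums ran from 153 to 1882 on ADR arrays and from 165 to 2777 on untreated arrays for 7 T cell genes, where Cd3g was at or below that median on every array. This sum differed by 0.38, -0.10, -0.11, -0.56 and -0.10. For 10 neutrophil genes they ran from 215 to 16826 on ADR arrays and from 226 to 7883 on untreated arrays, with Mpo, Camp, Ngp and S100a9 at or below that median on every array, and differences of 0.44, 0.08, -0.24, 1.09 and 0.17. Of 9 B cell genes, 8 were above it on all 10 arrays, with sums of 4604 to 13843 on ADR arrays and 5194 to 13447 on untreated arrays, and differences of 0.02, 0.39, 0.67, -0.17 and -0.46. The ADR array of lymphoma_1032 also had a lower median over all probe sets, 4.15, than the other 9 arrays, at 4.43 to 4.50. The part of these cells and of the array medians in the members' differences was not tested.

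Cdk1 and its partners, 7 genes with Foxm1, had a median change of -0.46; all 7 were lower on average and none passed the threshold. Cdk1, the kinase that starts mitosis, had log2 signals of 8.73, 9.41, 9.18, 9.34 and 9.87 on the ADR arrays of lymphoma_5783, lymphoma_7890, lymphoma_9250, lymphoma_1032 and lymphoma_4936, against 9.97, 10.07, 9.84, 9.90 and 9.03 on their untreated arrays; this order of lymphomas holds for all lists of 5 values that follow. The highest ADR value and the lowest untreated value both belonged to lymphoma_4936, and the groups overlapped through that pair. Cdk1 averaged 9.31 ± 0.41 in ADR cells and 9.76 ± 0.42 in untreated cells (SD, n = 5 each), a difference of -0.46 ± 0.77 with a limma adjusted p of 0.64.

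Ccnb2, cyclin B2, had signals of 7.96, 8.53, 8.36, 8.34 and 9.38 in ADR cells, against 9.51, 9.38, 9.09, 9.66 and 8.58 in untreated cells. Its 4 lowest signals were ADR arrays, and lymphoma_4936 crossed over. The difference of Ccnb2 was -0.73 ± 0.92 (SD, n = 5; limma adjusted p = 0.577), the lowest mean in this class. Cyclin A2 (Ccna2) differed by -0.61, the Cdk1-activating phosphatase Cdc25c by -0.68, and the small Cdk-binding proteins Cks1b and Cks2 by -0.26 and -0.23.

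On the probe set used, Foxm1, the transcription factor of this class, did not share the pattern. It had signals of 6.03, 6.51, 6.10, 7.03 and 6.24 in ADR cells, against 6.73, 6.42, 6.59, 6.69 and 6.43 in untreated cells. Its changes of -0.71, 0.09, -0.49, 0.34 and -0.19 were below 0 in lymphoma_5783, lymphoma_9250 and lymphoma_4936, and lymphoma_1032 gave its highest ADR value. The mean difference of Foxm1 was -0.19 ± 0.42 (SD, n = 5; limma adjusted p = 0.734). Its probe sets disagreed. One with a mean signal of 6.47, against 6.48 for the one used, had changes of -1.01, -0.34, -0.64, -0.21 and 0.13 and so the signs of most members. Another above the filter had changes of -0.97, 0.04, -0.48, -0.89 and -0.07, and with its probe sets averaged Foxm1 differed by -0.32.

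**Figure D3:**
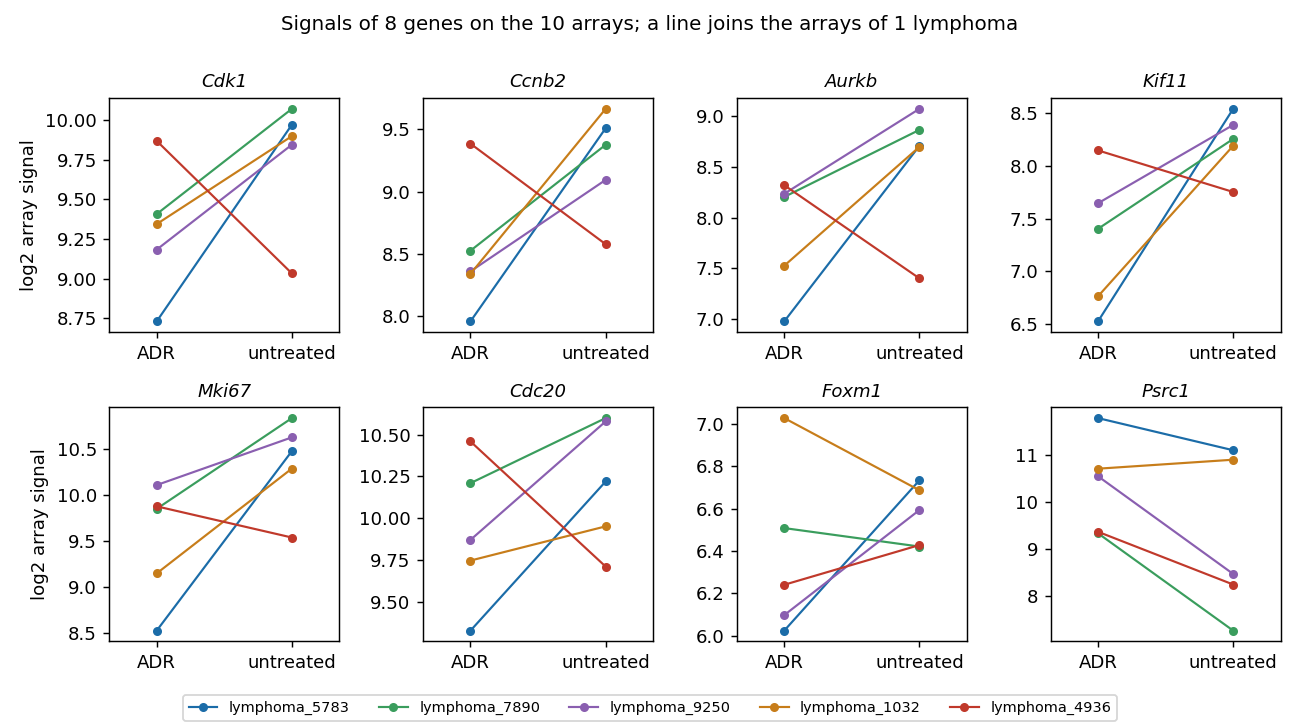
Log2 signals of 8 members on the 10 arrays, ADR left of untreated, each panel on its own axis, with a line joining both arrays of a lymphoma. The line of lymphoma_4936 runs opposite to the other 4 for genes such as Cdk1 and Kif11, and Psrc1 is higher with ADR in 4 of 5 lymphomas.

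The spindle class held 15 genes, of which 13 were lower and 2 higher on average, with a median change of -0.47. Plk1, a kinase of centrosomes, kinetochores and cytokinesis, had signals of 7.33, 8.13, 8.21, 7.86 and 8.29 in ADR cells, against 8.09, 8.66, 8.75, 8.36 and 7.78 in untreated cells. Aurka, the Aurora kinase of spindle poles, had 7.16, 8.50, 7.62, 8.25 and 8.57 in ADR cells, against 8.30, 8.73, 8.62, 8.67 and 8.09 in untreated cells. For both genes ADR was lower in 4 pairs and higher in lymphoma_4936, and the ranges of the groups overlapped. The mean difference was -0.36 ± 0.50 for Plk1 and -0.47 ± 0.65 for Aurka (SD, n = 5; limma adjusted p = 0.603 and 0.599).

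Kif11, the kinesin that pushes spindle poles apart, had the lowest mean change of the 46. Its signals were 6.53, 7.40, 7.65, 6.76 and 8.15 in ADR cells, against 8.54, 8.26, 8.39, 8.19 and 7.75 in untreated cells. The 4 lowest were ADR arrays, and the ADR array of lymphoma_4936 stood above its own untreated array. Kif11 averaged 7.30 ± 0.66 in ADR cells and 8.23 ± 0.30 in untreated cells, a difference of -0.93 ± 0.90 (SD, n = 5) with a 95% interval of -1.66 to -0.20. Its unadjusted limma p was 0.0192 and its adjusted p 0.565.

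Psrc1, a microtubule-associated protein also known as a p53-induced gene in mouse, went the other way. It had signals of 11.77, 9.33, 10.54, 10.70 and 9.37 in ADR cells, against 11.09, 7.28, 8.47, 10.89 and 8.25 in untreated cells. Psrc1 was higher with ADR in 4 lymphomas, most in lymphoma_7890 and lymphoma_9250, and differed by -0.19 in lymphoma_1032. Its untreated signals spread widely, with lymphoma_5783 and lymphoma_1032 far above the other 3. The difference was 1.14 ± 0.96 (SD, n = 5), with a 95% interval of 0.37 to 1.92, an unadjusted limma p of 0.00966 and an adjusted p of 0.565. A second Psrc1 probe set above the filter had a mean change of 0.57, and with all its probe sets averaged Psrc1 differed by 0.71. The other member with a mean above 0 was Gtse1, a microtubule protein of G2 also known to restrain p53, at 0.17, with changes of 0.15, 0.02, 0.22, -0.43 and 0.89.

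Among the other spindle genes the mean changes were -0.74 for Nusap1, which bundles microtubules, -0.74 for Gas2l3, which links microtubules to actin, and -0.57 for Tpx2, the activator of Aurka. Gas2l3 had changes of -1.30, 0.25, -0.72, -1.96 and 0.04 on the probe set used. In lymphoma_7890, where that one was above 0, its other 2 probe sets above the filter had changes of -0.46 and -0.22. Dlgap5, which stabilises kinetochore fibres, differed by -0.56, and Nek2, a centrosome kinase, by -0.51. Tacc3 and Ckap5, which act together on spindle microtubules, differed by -0.51 and -0.31. Ckap2l differed by -0.47, Hmmr by -0.41 and Ckap2 by -0.11, the smallest SD over lymphomas of the 46 being that of Ckap2, 0.28.

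The chromosomal passenger complex, which corrects wrong attachments of chromosomes to the spindle, was represented by 3 genes with a median change of -0.60. Aurkb, its kinase, had signals of 6.97, 8.20, 8.23, 7.52 and 8.32 in ADR cells, against 8.71, 8.87, 9.07, 8.70 and 7.40 in untreated cells. Birc5 (survivin) had 8.48, 9.25, 9.10, 8.88 and 9.39 in ADR cells, against 9.71, 9.81, 9.84, 9.46 and 8.24 in untreated cells. Cdca8 (borealin) had 8.29, 9.12, 9.09, 8.88 and 9.51 in ADR cells, against 9.62, 9.88, 9.98, 9.64 and 8.77 in untreated cells. For these 3 genes the untreated array of lymphoma_4936 lay below all other untreated arrays, and the ADR array of lymphoma_5783 was the lowest of its group. The mean differences were -0.70 ± 0.99 for Aurkb, -0.39 ± 0.91 for Birc5 and -0.60 ± 0.79 for Cdca8 (SD, n = 5; limma adjusted p = 0.587, 0.712 and 0.579).

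Of 8 kinetochore and checkpoint genes all 8 were lower on average, with a median of -0.60 and lymphoma medians of -1.38, -0.75, -0.73, -1.05 and 0.91. Ndc80, of the kinetochore complex that grips microtubules, had signals of 6.23, 6.34, 6.42, 5.87 and 7.01 in ADR cells, against 7.54, 7.30, 7.26, 7.41 and 6.39 in untreated cells. Its difference was -0.80 ± 0.84 (SD, n = 5), with an unadjusted limma p of 0.0276 and an adjusted p of 0.565. Kif2c, a kinesin that takes microtubules apart, had 6.92, 7.62, 7.64, 7.32 and 8.02 in ADR cells, against 8.08, 8.33, 8.37, 8.08 and 6.83 in untreated cells. Both genes were lower with ADR in 4 lymphomas and higher in lymphoma_4936, where Kif2c had its lowest untreated value. Kif2c differed by -0.44 ± 0.93 (SD, n = 5; limma adjusted p = 0.688). The checkpoint kinases Bub1 and Ttk differed by -0.69 and -0.68, and Bub1b, which inhibits the APC/C at the checkpoint, by -0.57. The Ndc80 partner Nuf2 differed by -0.55, the kinetochore motor Cenpe by -0.47 and the kinetochore protein Cenpf by -0.63.

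Cdc20, Ube2c and Cdca3 are an activator of the APC/C, its E2 ubiquitin-conjugating enzyme and one of its substrates; their median change was -0.52. Cdc20 had signals of 9.33, 10.21, 9.87, 9.75 and 10.46 in ADR cells, against 10.22, 10.60, 10.58, 9.95 and 9.71 in untreated cells. Ube2c had 9.10, 9.76, 9.71, 9.84 and 10.44 in ADR cells, against 10.51, 10.28, 10.55, 10.37 and 9.72 in untreated cells. For Cdca3 the signals were 8.03, 8.95, 8.82, 8.38 and 8.96 in ADR cells, against 9.60, 9.45, 9.29, 9.44 and 8.11 in untreated cells. The groups overlapped for each of the 3, and each was higher with ADR in lymphoma_4936. Mean differences were -0.29 ± 0.64 for Cdc20, -0.52 ± 0.78 for Ube2c and -0.55 ± 0.91 for Cdca3 (SD, n = 5; limma adjusted p = 0.71, 0.61 and 0.627).

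All 4 cytokinesis genes were lower on average, with a median of -0.47. Kif23, the motor of the central spindle, had signals of 7.39, 8.33, 7.90, 7.71 and 8.41 in ADR cells, against 9.23, 9.12, 8.68, 8.87 and 7.67 in untreated cells. Anln, anillin of the contractile ring, had 7.60, 7.64, 7.65, 7.99 and 7.93 in ADR cells, against 8.46, 8.41, 8.26, 8.46 and 7.07 in untreated cells. The ADR values of Anln lay close together, with an SD of 0.18, while its untreated value in lymphoma_4936 stood below every other value of the gene. Kif23 differed by -0.76 ± 0.95 and Anln by -0.37 ± 0.70 (SD, n = 5; limma adjusted p = 0.577 and 0.671). Ect2, which activates RhoA at the division site, and the kinesin Kif20b each differed by -0.47.

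Chromosome and chromatin genes had the lowest class median, -0.68 over 6 genes, and the smallest class median in lymphoma_4936, 0.51; neither was tested against the other classes. Mki67, the Ki-67 protein that coats mitotic chromosomes and is used as a marker of dividing cells, had signals of 8.52, 9.85, 10.11, 9.15 and 9.88 in ADR cells, against 10.48, 10.84, 10.63, 10.29 and 9.54 in untreated cells. In lymphoma_4936 the ADR value of Mki67 was the higher of its pair, by 0.34. Mki67 averaged 9.50 ± 0.65 in ADR cells and 10.36 ± 0.50 in untreated cells, a difference of -0.85 ± 0.84 (SD, n = 5). The limma fit over all genes gave Mki67 an unadjusted p of 0.0216 and an adjusted p of 0.565. The condensin subunits Smc4 and Ncapd2 differed by -0.77 ± 0.80 and -0.51, and Hmgb2, a DNA-bending protein, by -0.60 ± 0.66 (SD, n = 5). Unadjusted limma p was 0.0283 for Smc4 and 0.0386 for Hmgb2. Cdca2 differed by -0.76 ± 1.31 (SD, n = 5), the largest SD of the 46.

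Anp32e, a chaperone that removes the histone variant H2A.Z from chromatin, had the mean nearest to 0 in that class. Its signals were 10.31, 10.12, 10.06, 10.31 and 11.15 in ADR cells, against 10.37, 10.67, 10.52, 10.29 and 10.79 in untreated cells. The ADR array of lymphoma_4936 was the highest of all 10, and the other 9 lay between 10.06 and 10.79. Anp32e differed by -0.14 ± 0.38 (SD, n = 5; limma adjusted p = 0.793), with changes of -0.06, -0.56, -0.46, 0.02 and 0.37. Another Anp32e probe set above the filter had changes of -0.63, -0.50, -0.42, -0.27 and 0.41, with a mean of -0.28 and the signs of most members.

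**Figure D4:**
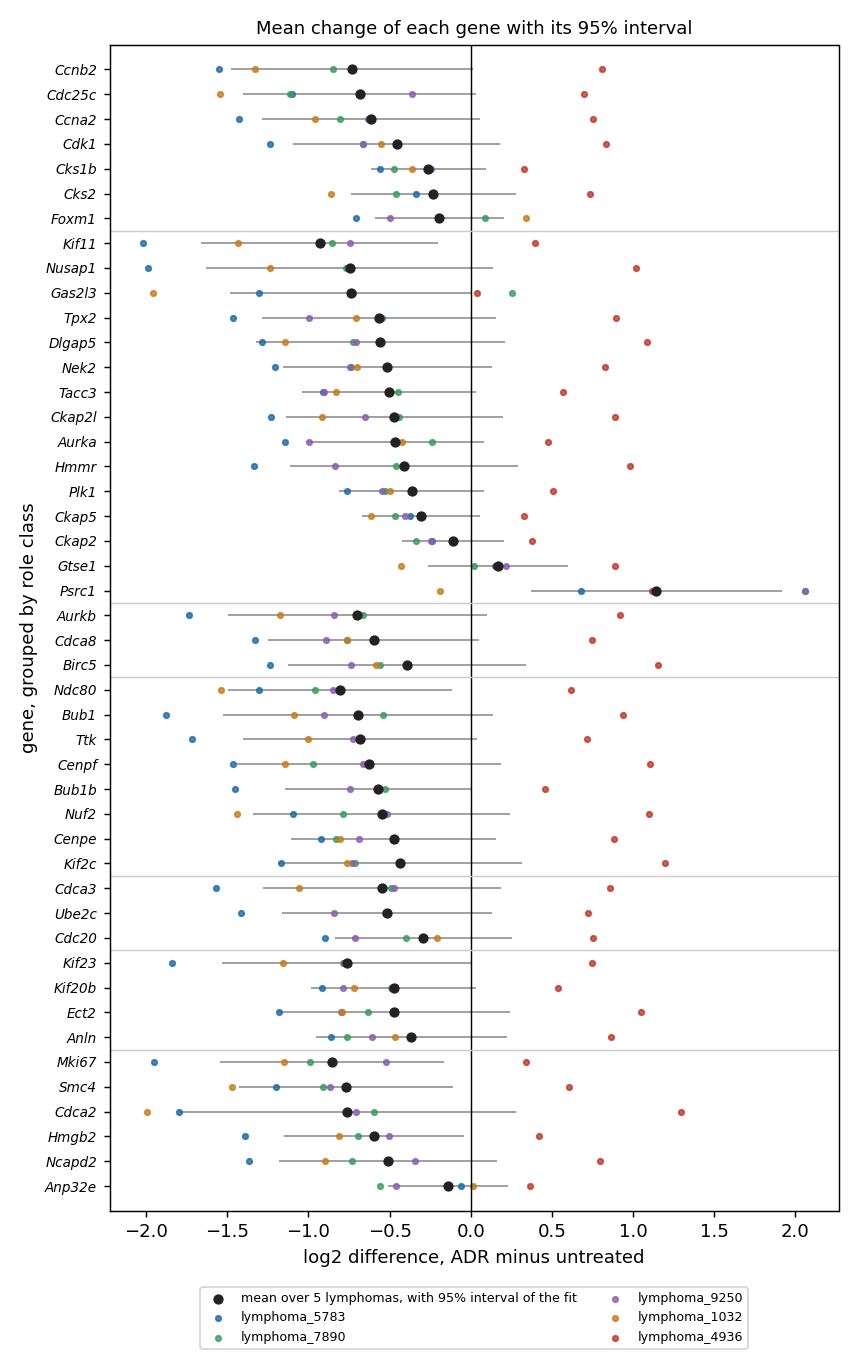
Mean log2 difference, ADR minus untreated, of each of the 46 genes (black points, with the 95% interval of the limma fit as a line) and its values in the 5 lymphomas (coloured points), grouped by role. The means run from -0.93 for Kif11 to 1.14 for Psrc1, and the points of lymphoma_4936 lie to the right of 0 for 45 of 46.

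Other probe sets gave the same direction. The members had 108 probe sets in all, and 62 were not the one used. Of these, 44 passed the filter on dim genes, covering 29 members, and 44 of 44 had the same sign of mean change as the probe set used for their gene. Their median changes were -1.14, -0.53, -0.74, -0.88 and 0.65 in the 5 lymphomas. Probe sets of a gene share the RNA and the array, so these are not further replicates.

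Most mitosis genes outside the set had differences in the same directions. Of 51 listed, 50 had a probe set and 48 were tested; all 48 were lower on average, beside 55.2% of all genes, and 0 passed the threshold. At an unadjusted p below 0.05, 9 were lower, beside 4.52% of all genes. Their median change was -0.50, and the lymphoma medians were -1.22, -0.57, -0.59, -0.87 and 0.73. In lymphoma_4936, 44 were higher and 4 lower. Troap, Cdc25b and Wee1 were lower in all 5 lymphomas, which no member was. Over all genes 9.49% had 1 sign throughout, in either direction, and these genes of the 48 are not above that share. The lowest p belonged to Cit, the citron kinase of cytokinesis, at -0.54 ± 0.39, Knl1, the kinetochore scaffold for Bub1, at -0.71 ± 0.69, and Ncaph, a condensin subunit, at -0.61 ± 0.63 (SD, n = 5; limma adjusted p = 0.565 for each).

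Among 23 regulators of these promoters, from MuvB, the E2F and Rb families and NF-Y with Cdkn1a, 17 were lower and 6 higher on average, beside 55.2% of all genes lower. The median change was -0.21 and none passed the threshold. At an unadjusted p below 0.05, 4 were lower, beside 4.52% of all genes, and 1 was higher, beside 3.97%. Cdkn1a had signals of 11.84, 10.63, 10.61, 12.19 and 9.34 in ADR cells, against 11.45, 9.27, 10.14, 11.92 and 8.85 in untreated cells. It was higher with ADR in all 5 lymphomas, lymphoma_4936 included, while the groups overlapped and the lymphomas differed among themselves. Cdkn1a averaged 10.92 ± 1.13 in ADR cells and 10.33 ± 1.33 in untreated cells, a difference of 0.60 ± 0.43 (SD, n = 5; limma adjusted p = 0.565). E2f2, an activating E2F, was lower in all 5 lymphomas, at -0.55 ± 0.51, and Nfyb, a subunit of NF-Y, differed by -0.63 ± 0.47 (SD, n = 5; limma adjusted p = 0.565 for both). Mybl2, the activator that joins MuvB, differed by -0.51 ± 0.60 (SD, n = 5; limma adjusted p = 0.577).

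Subunits and regulators of the APC/C, 17 genes, had a median change of -0.11, with 13 lower and 4 higher on average (55.2% of all genes lower) and 0 at an unadjusted p below 0.05. Fbxo5, the APC/C inhibitor Emi1, differed by -0.78 ± 1.04, and the subunits Anapc15 and Anapc5 by -0.27 ± 0.26 and -0.25 ± 0.34 (SD, n = 5; limma adjusted p = 0.579, 0.587 and 0.631).

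**Figure D5:**
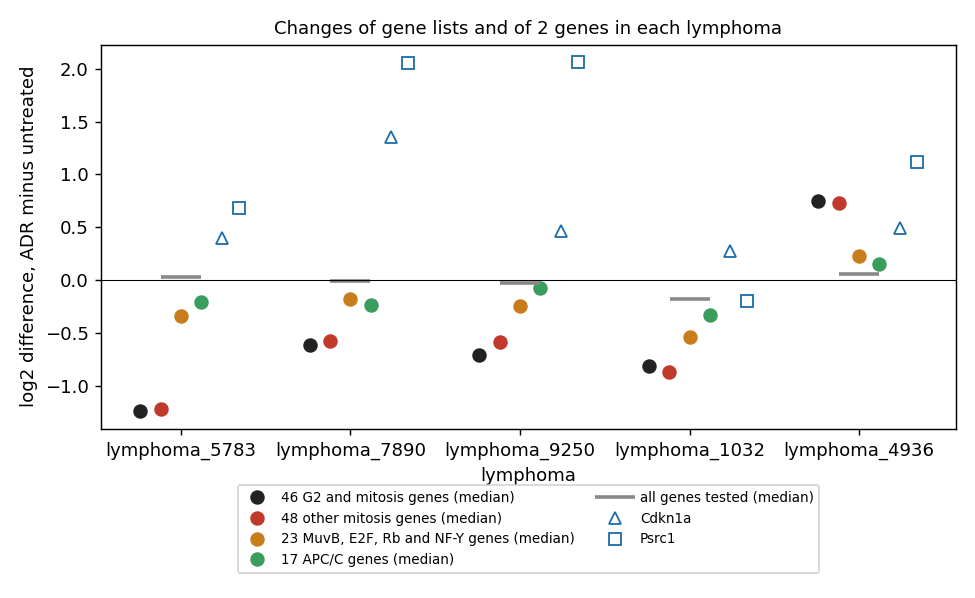
Median log2 differences, ADR minus untreated, of the 46 genes, of 3 related lists and of all genes tested in each lymphoma, with Cdkn1a and Psrc1 as single genes. Members and other mitosis genes lie together below 0 in 4 lymphomas and above 0 in lymphoma_4936, where Cdkn1a is also higher with ADR, by 0.49.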

How the data were processed

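Signals of 45101 probe sets on 10 arrays were taken from the table the authors deposited. Its values are log2 signals that the authors computed; for this the submitters' processing notes name Partek and RMA. No version, setting or log base is given in the sources used here, and the base was read from the range of the values. No normalization was added to what the authors deposited. Probe sets with exactly 1 gene symbol in the platform annotation (34945, without 64 control probe sets) were named, and 932 with several symbols were not. One probe set per gene was kept, the one with the highest mean.

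ADR was compared with untreated by limma 3.58.1 in R 4.3.3, with the lymphoma number as a block, over the 11472 genes above the table's median of 4.43 on at least 5 of 10 arrays. Tests were two-sided, p was adjusted over all these genes (Benjamini-Hochberg), and the threshold was 0.05. The series text names the arrays as matched pairs; deviations from group means correlated at 0.51 to 0.79 within a pair and at most 0.22 with another lymphoma's array. No label says that each lymphoma came from its own mouse, so p measures the spread of the within-pair changes between these samples. The 5 arrays per group limit the precision.

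The members, the role classes and the related and marker lists were chosen with earlier results of these data known, so no list is tested. Per-array values are given for the member with the lowest p, the lowest and the highest mean change in each role class, and for Foxm1, Plk1, Cdk1, Ccnb2, Aurka, Aurkb, Cdc20, Mki67 and Birc5; of each related list, the 3 genes with the lowest p were named, with Cdkn1a and Mybl2. Alternatives were the fit without the block, other filters, the mean of probe sets, quantile normalization, centring, array weights, another prior and each lymphoma left out in turn. The fit was tested on simulated data. Summaries and figures used Python 3.11.15, pandas 2.3.3 and matplotlib 3.10.9. Suv39h1, Ccnb1, Lck and Fbn1 were not analysed here, so the genotype was not checked.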

Additional observations from a re-analysis of the deposited data

Results flagged for a closer look

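Of 64 groups of 5 values examined, 14 held a value far from the other 4 by Dixon's criterion; chance alone gives about 1 in 20 groups, and the genes share their arrays. On the untreated array of lymphoma_4936 the log2 signal lay far below the other untreated arrays for 7 genes: Aurkb (7.40), Birc5 (8.24), Ndc80 (6.39), Kif2c (6.83), Cdca3 (8.11), Anln (7.07) and Cdk1 (9.03). The change with ADR in lymphoma_4936 stood far above the other 4 for 5 genes: Cdca8 (0.75), Birc5 (1.16), Kif2c (1.19), Anln (0.86) and Plk1 (0.51). Anp32e had a signal of 11.15 on the ADR array of lymphoma_4936, far above the other ADR arrays. Cdkn1a had a change of 1.36 in lymphoma_7890, far above its 0.28 to 0.49 in the other 4 lymphomas.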

How the results depend on the processing

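No gene passed the threshold under any of the 13 alternatives run in limma, members included, with smallest adjusted p from 0.153 to 0.9999. All 377 values of the 29 named genes kept their sign. Dropping the block or filter, a stricter filter or another prior leaves each change as it was, so those signs were fixed. The members lower on average numbered 43 to 45 and their median change ran from -0.85 to -0.34. The 43 was found with a stricter filter and with averaged probe sets, where 45 members were tested. Centring each array on its median moved the median of all genes to 0.06 and that of the members to -0.43. The count of members lower at an unadjusted p below 0.05, 5 in the paired fit, was 11 with no replicate block (1.74% of all genes), 11 with no filter (4.81%), 15 when a gene's probe sets were averaged (5.57%), 10 with a trended and robust prior (4.38%) and 26 with array weights (5.31%). Leaving out 1 lymphoma gave 0 to 41: 41 without lymphoma_4936, 0 without lymphoma_5783, 0 without lymphoma_1032, and 2 without lymphoma_7890 or lymphoma_9250. The pair of lymphoma_4936 had been set apart by the members' own values, so the 41 is a description only. The cause of these shifts was not tested. The paired fit made 0 calls, so removing the pairing could take none away, and it added 0. Signal over background was not given with the table, so dim genes were limited by the median filter alone.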

Other observations

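Untreated cells differed between lymphomas in a pair of genes known as p53 targets. Psrc1 had untreated signals of 11.09 in lymphoma_5783 and 10.89 in lymphoma_1032, and of 7.28, 8.47 and 8.25 in lymphoma_7890, lymphoma_9250 and lymphoma_4936. Cdkn1a had untreated signals of 11.45 in lymphoma_5783 and 11.92 in lymphoma_1032, and of 9.27, 10.14 and 8.85 in the other 3 in the same order.

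Across the 46 genes, the changes in lymphoma_5783 and lymphoma_1032 had a Spearman's rho of 0.62 and a Pearson's r of 0.61. For lymphoma_7890 and lymphoma_1032 rho was 0.61 and r 0.39, and for lymphoma_7890 and lymphoma_9250 rho was 0.15 and r 0.78, so both measures rank the pairs differently. Psrc1 changed by 2.06 in both lymphoma_7890 and lymphoma_9250, far above the other members, and without it their rho was 0.10. No r was computed without Psrc1, so r of 0.78 is not a likeness over all 46 genes. For lymphoma_4936 against each of the others rho was -0.20 to -0.14 and r -0.24 to 0.07. Without Psrc1 that rho was -0.27 to -0.21. These are descriptions across genes, which are not independent replicates and share an array.

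Members with a CHR match in the promoter (n = 27) had a median change of -0.47, between -0.93 and -0.11. Those without one (n = 11) had a median of -0.51, between -0.74 and 1.14. Only TTTGAA and TTCAAA were counted as matches, so members of the second group, Psrc1 among them, may hold other spellings of CHR.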
